A study of Mus musculus with 2 samples.

Results

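The genes described here encode 3 groups of conjugating enzymes, the glutathione transferases, the UDP-glucuronosyltransferases and the sulfotransferases. They were taken by symbol: every non-control array probe whose RefSeq accession names a gene of the classes Gsta, Gstk, Gstm, Gsto, Gstp, Gstt and Gstz, or a gene of Mgst, Ugt or Sult, was included. This gave 59 of the 20659 genes named on the array, read by 81 of its 39429 gene probes. RNA came from glomeruli, the capillary tufts where urine is filtered. The donors were male mice, 8 months old, that had received 0.5 ml of pristane, an oil that sets off lupus-like autoimmunity, by 1 intraperitoneal injection and were studied 4 months later. One group was wild type (WT) and the other lacked Sirpa in podocytes only (Sirpa-/-), and both carried the pristane disease. Sirpa encodes SIRPα, an inhibitory receptor for CD47. Each group had 1 Agilent one-colour array. The sources used here give neither the promoter that drives the podocyte deletion nor the number of mice behind each RNA. The series' design speaks of isolated podocytes, whereas the sample labels speak of glomeruli.

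With a single array on each side there was nothing to estimate the spread between mice from, so no test was made, and each value compares these 2 arrays alone. Signals are processed intensities in array units. Differences are on the log2 scale, Sirpa-/- minus WT, after each array was scaled to its 75th percentile, and a gene is represented by the probe with its highest mean signal. The single Sirpa probe read 17315 on the array labelled Sirpa-/- and 11624 on the WT array, 1.55-fold higher. This goes against the label, although the probe's place relative to the deleted part is not known here and other glomerular cells keep the gene. Directions therefore refer to the library labelled Sirpa-/-, called the knockout-labelled array. Of all gene probes, 85.3% (WT) and 86.7% (Sirpa-/-) were well above background.

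As background, the 3 enzyme groups make reactive or fat-soluble compounds easier to excrete. Glutathione transferases join the tripeptide glutathione to electrophiles, and the product is trimmed to a mercapturate by enzymes on the brush border of the renal tubule. UDP-glucuronosyltransferases add glucuronic acid taken from UDP-glucuronate, and sulfotransferases add sulfate taken from the donor PAPS. In the kidney these enzymes are best known from the proximal tubule, the segment that follows the glomerulus, and several glutathione transferase genes are induced by the transcription factor NRF2.

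The transferase genes as a whole differed between the arrays about as much as all measured genes did. The SD of their log2 differences was 0.42, against 0.41 over all measured genes. Of the 59 genes, 49 had a probe well above background on both arrays, 2 were above background on the WT array only, and 8 were above background on neither. Of all 20659 named genes, 18239 had such a probe on both arrays, and 247 were above background on the WT array only. Genes above background on neither array were not counted over all genes, so the 8 have no share to stand beside. Among the 49, 0 were at least 2-fold higher on the knockout-labelled array, where 1.56% of all 18239 measured genes were. Just 1, the sulfotransferase gene Sult6b1, was at least 2-fold lower, against 1.67% of all genes. At a fold of 1.5, 2 of the 49 were higher (4.34% of all genes) and 3 were lower (5.27%). The median over the 49 genes was -0.06, and -0.08 over the 34 of them with a mean signal above the median of all probes. Over all measured genes the median was 0.0014. After normexp background correction these medians were 0.021 for the members and 0.074 for all genes. That correction subtracts a modelled background from each spot's median signal and then adds 50 units, which shrinks differences between dim signals. Of the 49 genes 28 lay below 0, or 57.1%, against 49.8% of all genes.

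**Figure D1:**
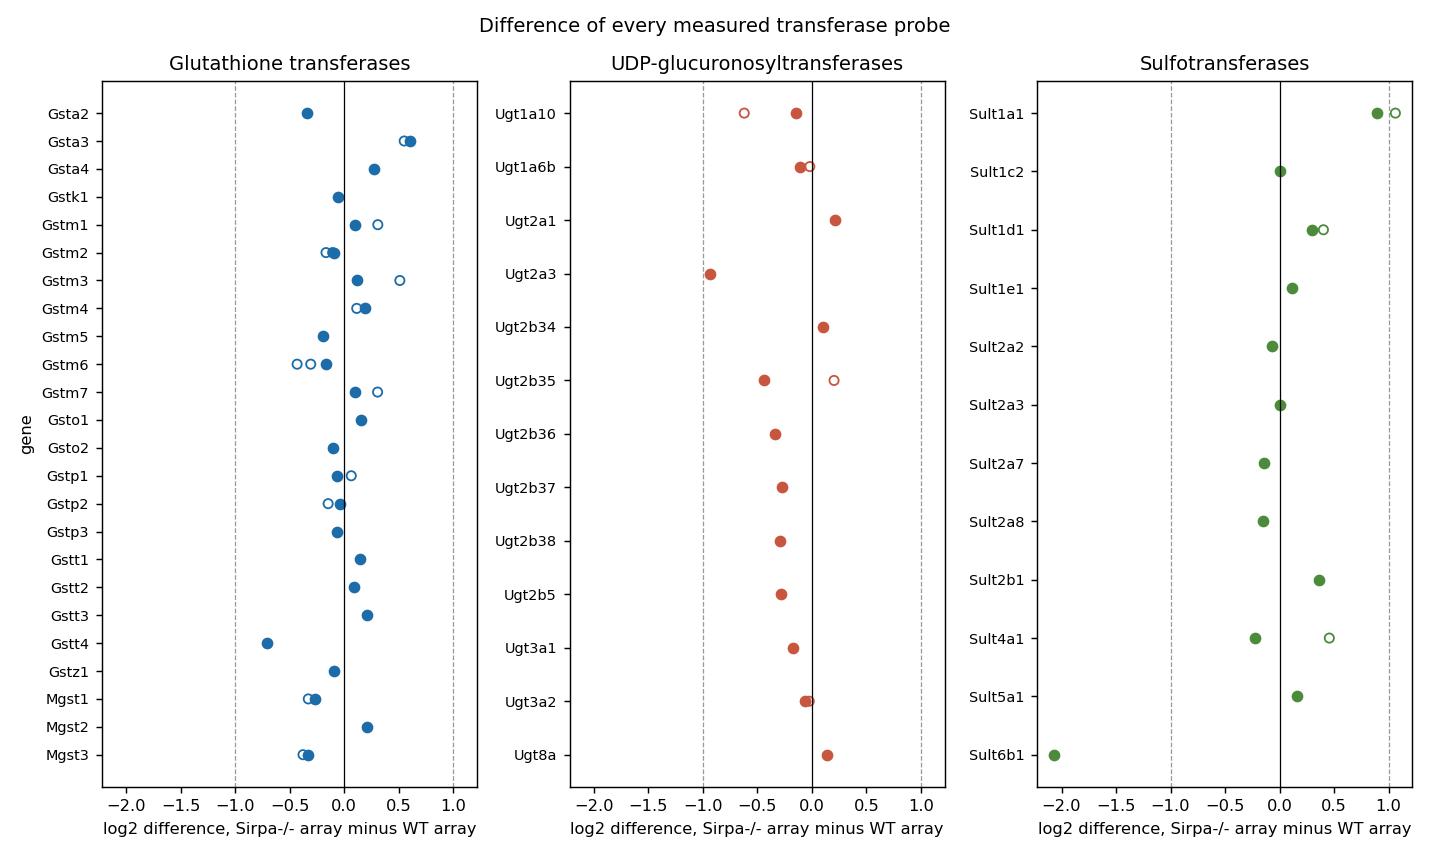
Log2 difference (x axis, knockout-labelled minus WT array) of every transferase probe measured on both arrays, with 1 gene per line (y axis); filled points are the probe that represents the gene, open points its other probes, and dashed lines mark 2-fold. Most points lie close to 0, Sult1a1 and Gsta3 lie to the right on both of their probes, and Sult6b1 lies furthest to the left at -2.07.

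Among the 16 members above the 75th percentile on both arrays, Sult1a1 had the largest difference. It encodes the phenol sulfotransferase of the liver and other organs, which sulfates small phenols. Its first probe read 7358 on the WT array and 13123 on the knockout-labelled array, which is 1.86-fold higher. Its second probe read 6847 and 13705, which is 2.09-fold higher, so the gene passes 2-fold on one of its probes and falls just short on the other. The knockout-labelled array was higher on both probes, by 0.90 and 1.06 on the log2 scale. A difference of 0.90 or more was reached by 2.03% of all measured genes. Of the 6809 genes above the 75th percentile on both arrays, 100 passed 1.5-fold upward and 21 passed 2-fold. Each gene was counted by the probe that represents it, so Sult1a1, at 1.86-fold, is among the 100 but not the 21. For single spots printed several times, differences at the same array position varied with a median SD of 0.055 for brighter probes and 0.30 for dimmer ones. That spread is technical and leaves out the difference between mice.

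Gsta3, an alpha class enzyme known in the mouse for detoxifying the aflatoxin epoxide, was the other member at least 1.5-fold higher. Its probes read 548 and 640 on the WT array and 769 and 931 on the knockout-labelled array. The differences were 0.55 and 0.60, or 1.46-fold and 1.52-fold, so both probes read higher on that array. The promoters of these 2 genes are shown because both of their probes shared a direction. They come from the RefSeq table of build GRCm38.p6, span 250 bases before to 50 bases after the start, and run 5′ to 3′ on the gene's strand. Capitals mark matches, on either strand, to TGACNNNGC, the core of the antioxidant response element that NRF2 binds, and to GTTAAT, one arm of the palindromic site of the factor HNF1. The Sult1a1 promoter (chr7:126676369-126676668, minus strand) and the Gsta3 promoter (chr1:21240335-21240634, plus strand) read as follows.
Sult1a1: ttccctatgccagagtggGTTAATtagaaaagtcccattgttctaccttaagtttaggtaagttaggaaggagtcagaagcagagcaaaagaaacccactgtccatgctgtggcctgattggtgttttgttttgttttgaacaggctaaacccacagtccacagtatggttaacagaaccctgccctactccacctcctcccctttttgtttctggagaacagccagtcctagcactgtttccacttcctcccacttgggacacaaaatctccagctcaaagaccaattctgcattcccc
Gsta3: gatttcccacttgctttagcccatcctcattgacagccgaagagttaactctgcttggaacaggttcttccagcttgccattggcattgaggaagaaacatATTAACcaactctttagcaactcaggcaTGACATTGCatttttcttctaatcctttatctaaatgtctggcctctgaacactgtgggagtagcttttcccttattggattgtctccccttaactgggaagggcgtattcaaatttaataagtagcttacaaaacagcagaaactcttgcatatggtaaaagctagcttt

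The Sult1a1 window held 1 GTTAAT match and no TGACNNNGC match. The Gsta3 window held a TGACNNNGC match, TGACATTGC, and a GTTAAT match on the other strand, ATTAAC. Across the promoter table, 51 of the 59 genes had 63 windows. TGACNNNGC lay in 4 of the 63 (6.35%), in Gsta3, Gstm5, Gstm7 and Mgst1, against 12.4% of all 32851 promoter windows. GTTAAT lay in 11 of the 63 (17.5%), against 7.10% of all windows. GTTAAT was picked from 6 motifs searched, after its matches were seen, so its share is a description. Of the other 4, also on both strands, the first 10 letters of the HNF1 site, which begin with GTTAAT, lay in 5 of the 63 windows (7.94%) against 0.399% of all. These 5, also among the 11 with GTTAAT, belong to Sult1d1, Sult2a3, Sult2a4, Sult2a6 and Ugt1a10. The Sult2a genes lie in 1 cluster, so their windows need not be independent. Sult2a4 and Sult2a6 were above background on neither array. TTGCGTG, the xenobiotic response element core, lay in 1 (1.59%) against 1.16%. TGACCTTTG lay in 0 against 0.478%, and the whole HNF1 site in 0 of the 63 and in 3 of all 32851. These are letter matches and not sites shown to be bound. The 4 genes with a TGACNNNGC match did not share a direction, at 0.60 for Gsta3, -0.19 for Gstm5, 0.10 for Gstm7 and -0.27 for Mgst1.

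**Figure D2:**
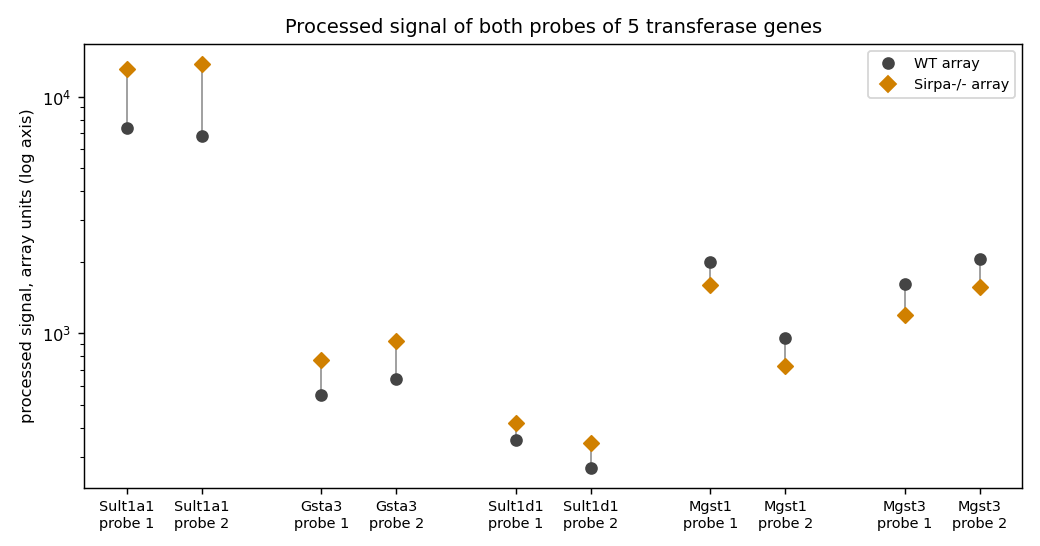
Processed signal (y axis, array units, log axis) on the WT array (circles) and on the knockout-labelled array (diamonds) for both probes of 5 transferase genes (x axis). The diamonds lie above the circles for both probes of Sult1a1, Gsta3 and Sult1d1 and below them for both probes of Mgst1 and Mgst3.

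The soluble glutathione transferases were all measured, 21 of 21 genes, with a median of -0.04. Of them 19 differed by less than 1.5-fold, as did 16486 of all 18239 measured genes. In the alpha class, Gsta2 read 1698 and 1282, lower by 1.27-fold on the knockout-labelled array, and so opposite to Gsta3. Gsta4, which clears the lipid peroxidation product 4-hydroxynonenal, was printed in 10 spots per array. Those spots ran from 1302 to 1488 with a median of 1377 for WT, and from 1468 to 1734 with a median of 1612 for Sirpa-/-. The ranges overlap slightly before scaling, and the scaled difference was 0.27.

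The mu class, whose 7 genes lie in 1 cluster, stayed within 1.5-fold throughout, from -0.19 for Gstm5 to 0.19 for Gstm4. Gstm1 read 15589 and 16011 (0.10), with 0.31 on its second probe. Gstm2 read 18783 and 16850 (-0.09), with -0.11 and -0.17 on its other probes. Gstm6, also lower on all of its 3 probes, gave -0.17, -0.31 and -0.43. Genes of this cluster are close copies of one another, so a probe may read more than 1 of them.

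The pi class, abundant in many epithelia, showed hardly any difference. Gstp2 read 44930 and 41857 (-0.04) and Gstp1 8001 and 7329 (-0.06), and the second probe of Gstp1 gave 0.06. Gstp1 and Gstp2 differ by few bases, so either gene's probes may read both. Gstp3 was dim at 16.9 and 15.5 (-0.06). All 3 genes lay within 0.07 of 0 on the probe that represents them, and Gstp1 and Gstp2 both came to -0.13 after normexp correction.

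The theta class was slightly higher for Gstt1 (3695 and 3924, 0.15), Gstt2 (0.09) and Gstt3 (1626 and 1804, 0.21). Gstt4 went the other way at -0.71, from the dim signals of 11.7 and 6.86, and after normexp background correction its value was 0.06. Gstz1, the maleylacetoacetate isomerase of tyrosine breakdown, read 3363 and 3021 (-0.09, and 0.02 after normexp correction). Gstk1, the mitochondrial and peroxisomal enzyme, read 4553 and 4200 (-0.05). Gsto1, which also reduces dehydroascorbate, read 1586 and 1686 (0.15), and Gsto2 270 and 241 (-0.10).

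The membrane-bound glutathione transferases did not move as one. Mgst1, which protects membranes from lipid peroxides, read 2006 and 957 on its probes on the WT array and 1594 and 730 on the knockout-labelled array. Its differences were -0.27 and -0.33, the same direction on both. Mgst3 read 1624 and 2066 for WT and 1197 and 1573 for Sirpa-/-, for differences of -0.38 and -0.33. Mgst2, which can also make leukotriene C4, went the other way at 206 and 228 (0.21). Of the 2 Mgst1 start sites in the promoter table, the first (chr6:138140277-138140576, plus strand) held the TGACNNNGC match, written here as its reverse complement in capitals.
Mgst1: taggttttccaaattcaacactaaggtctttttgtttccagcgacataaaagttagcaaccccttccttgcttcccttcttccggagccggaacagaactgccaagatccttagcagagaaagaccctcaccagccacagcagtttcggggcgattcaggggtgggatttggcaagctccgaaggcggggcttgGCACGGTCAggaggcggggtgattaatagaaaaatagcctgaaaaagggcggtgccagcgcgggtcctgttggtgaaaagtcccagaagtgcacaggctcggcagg

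Of the 15 UDP-glucuronosyltransferase genes 13 were measured, with a median of -0.17. Of the 13, 10 lay below 0, where 49.8% of all genes did, and the 10 include Ugt2b35, whose probes differ in sign. None reached 2-fold in either direction, and 1, Ugt2a3, was at least 1.5-fold lower, as were 5.27% of all genes. It read 25.5 and 12.8, 1.91-fold lower, at dim signals and on a single probe, and its value was 0.02 after normexp background correction. Ugt2a1, known from the olfactory epithelium, read 38.0 and 42.2 (0.21).

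Of the Ugt2b genes, which glucuronidate steroids, bile acids and many drugs, 6 of 7 were measured and 5 of the 6 lay below 0, with a median of -0.29. Ugt2b5 read 544 and 429 (-0.28), Ugt2b37 734 and 580 (-0.28) and Ugt2b38 927 and 724 (-0.29). Ugt2b36 read 187 and 142 (-0.34). These 4 genes were lower on the knockout-labelled array by between 1.21-fold and 1.26-fold. After normexp background correction Ugt2b5 (-0.29) and Ugt2b37 (-0.25) stayed near these values, Ugt2b36 came to -0.17 and Ugt2b38 to -0.10, and the UGT2 median to -0.14. Ugt2b35 gave -0.44 on one probe and 0.20 on the other, so its direction is not settled, and Ugt2b34 lay at 0.10.

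The Ugt2b genes lie in 1 cluster with Ugt2a genes, and the promoters of Ugt2b5 (chr5:87140291-87140590), Ugt2b37 (chr5:87254739-87255038) and Ugt2b38 (chr5:87424154-87424453), all on the minus strand, are shown because their sequences are close copies and the genes gave almost the same difference before normexp correction, though not after it. None of the 3 windows held a match to either motif, so no capitals appear.
Ugt2b5: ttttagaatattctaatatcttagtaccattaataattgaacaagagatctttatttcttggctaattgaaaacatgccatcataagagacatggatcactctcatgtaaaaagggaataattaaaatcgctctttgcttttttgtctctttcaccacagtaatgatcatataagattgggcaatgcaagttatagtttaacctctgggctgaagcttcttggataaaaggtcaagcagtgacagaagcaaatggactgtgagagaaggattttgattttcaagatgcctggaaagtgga
Ugt2b37: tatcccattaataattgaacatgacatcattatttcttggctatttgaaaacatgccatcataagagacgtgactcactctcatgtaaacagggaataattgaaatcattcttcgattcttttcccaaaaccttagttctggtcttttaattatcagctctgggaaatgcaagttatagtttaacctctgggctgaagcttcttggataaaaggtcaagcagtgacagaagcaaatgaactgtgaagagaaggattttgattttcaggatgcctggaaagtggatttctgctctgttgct
Ugt2b38: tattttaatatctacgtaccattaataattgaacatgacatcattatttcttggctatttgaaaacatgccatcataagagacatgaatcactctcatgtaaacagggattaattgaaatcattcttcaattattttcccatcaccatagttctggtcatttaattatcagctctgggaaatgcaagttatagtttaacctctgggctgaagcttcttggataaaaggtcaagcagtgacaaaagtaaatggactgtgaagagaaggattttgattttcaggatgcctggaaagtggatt

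Ugt2b37 and Ugt2b38 were identical at 273 of 286 aligned bases (95.5%), Ugt2b37 and Ugt2b5 at 247 of 276 (89.5%), and Ugt2b38 and Ugt2b5 at 261 of 290 (90.0%). Copies this close may also share probe sequence, and their differences need not be independent measurements. Whether the probes cross-read was not tested.

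The Ugt1a genes are first exons of 1 locus joined to a common set of later exons, so a probe in the common part reads several of them. Ugt1a6b, an enzyme for flat phenols, read 3161 and 2810 (-0.11) on one probe and 23.7 and 22.4 (-0.02) on the other. Ugt1a10 gave -0.14 and -0.62 at dim signals of 69.5 and 60.2 on its brighter probe. Ugt3a2 read 832 and 764 (-0.06) and Ugt3a1 156 and 132 (-0.17), and both use other sugars than glucuronate. Ugt8a, which makes galactosylceramide, read 48.7 and 51.5 (0.14). Ugt1a6a and Ugt2b1 were not well above background on either array.

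Of 20 sulfotransferase genes 12 were measured, with a median of 0.0038. Of the 12, 10 differed by less than 1.5-fold, as did 16486 of all 18239 measured genes. Sult1d1, a catecholamine sulfotransferase of the mouse kidney, read 353 and 271 on its probes for WT and 417 and 344 for Sirpa-/-. It was higher on both probes, by 0.30 and 0.40. Sult1c2 (212 and 203, 0.00) and the estrogen sulfotransferase Sult1e1 (28.4 and 29.4, 0.11) differed little. In the SULT2 family, which sulfates steroids and bile acids, Sult2a8 read 2075 and 1785 (-0.16, and -0.05 after normexp correction). Sult2b1, which sulfates cholesterol, read 25.3 and 31.3 (0.37). Sult4a1, known from the brain, read 164 and 135 on one probe (-0.23) and 10.7 and 14.0 on the other (0.46), so its direction is not settled. Sult5a1 read 24.9 and 26.7 (0.16).

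Sult6b1 was the single member at least 2-fold lower, 4.19-fold, at 46.8 on the WT array and 10.7 on the knockout-labelled array. It rests on 1 probe in 1 spot, and the scanner software put the error of those signals at 10.9% and 18.2%. After normexp background correction the difference was -0.26, short of 2-fold. That correction adds 50 units, more than either signal, so it could not decide whether the call for Sult6b1 holds. Its relative Sult6b2 was well above background on the WT array only, at 14.1, and the knockout-labelled array was at least 2.18-fold lower. That bound sets the bright signal against the lowest signal well above background on the dim array, and 23.1% of the 247 genes above background on the WT array only had a bound of at least 2-fold. Sult1b1 was also above background on the WT array only, at 10.6 against 5.21, at least 1.63-fold lower. Sult1c1, Sult2a1, Sult2a4, Sult2a6, Sult3a1 and Sult3a2 were not well above background on either array.

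**Figure D3:**
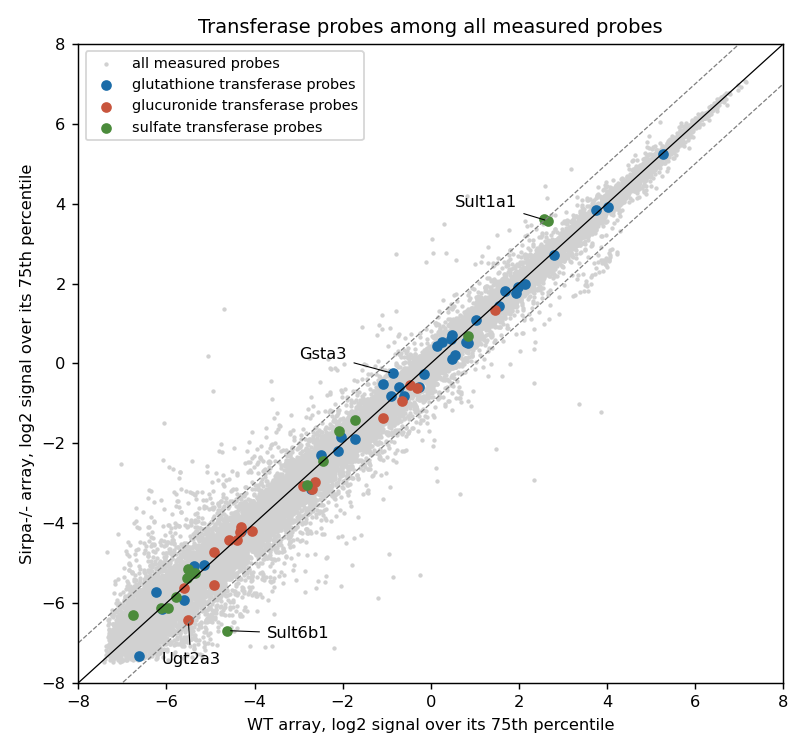
Scaled log2 signal on the WT array (x axis) against the knockout-labelled array (y axis) for all probes measured on both arrays (grey) and for the transferase probes (coloured by group); the solid line marks equal signal and dashed lines mark 2-fold. The transferase probes span the range of signals and follow the solid line, Sult1a1 stands near the upper dashed line, and Sult6b1 stands below the lower one at dim signal.

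Of the measured members 18 had more than 1 measured probe, and the probes of 15 shared a sign (83.3%), against 59.2% of the 4561 such genes on the array. The median range between probes was 0.12 for the members and 0.20 for all genes. A range over 1 was seen in 0 of the 18 members and in 196 of the 4561 genes. The members whose probes differed in sign were Gstp1, Sult4a1 and Ugt2b35.

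Genes that supply or finish these conjugations were set beside the members from lists chosen by function, and 0 of any list reached 2-fold in either direction. The glutathione list, covering synthesis, reduction and peroxidases, had a median of 0.08 over 17 genes. Gclc (-0.13) and Gclm (0.08), the subunits of the enzyme that starts glutathione synthesis, lay near 0. The 5-oxoprolinase gene Oplah (0.40), the peroxidase gene Gpx7 (-0.37), the glutaredoxin gene Glrx (0.33) and the lipid hydroperoxide reductase gene Gpx4 (0.25) were the furthest from 0. Mercapturate processing lay at 0.0090 over 11 genes, with the brush border aminopeptidase Anpep 1.78-fold lower, at 929 and 500, Dpep2 at 0.61 from dim signals and Ggt5, a γ-glutamyltransferase, at 0.31.

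Enzymes that make and use UDP-glucuronate lay at -0.0081 over 12 genes. Ugp2 (-0.0010) and Ugdh (0.10), both on the route to UDP-glucuronate, differed little. Miox (-0.39), which breaks down inositol in the proximal tubule, the transporter genes Slc35b1 (-0.27) and Slc35d1 (0.26), and the β-glucuronidase gene Gusb (-0.24) followed. Genes of PAPS supply and sulfate transport lay at -0.04 over 15 genes. The PAPS synthases Papss1 (13326 and 12244, -0.06) and Papss2 (983 and 859, -0.13) were close to 0, and the sulfate transporter genes Slc26a1 (-0.67) and Slc26a2 (-0.43) were lower at dim signals. Bpnt2, a Golgi phosphatase that clears the spent donor, gave -0.31.

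The NRF2 list had a median of 0.02 over 23 genes, with 13 above 0 and 10 below. Nfe2l2, which encodes NRF2, read 10531 and 13089 (0.38), and Keap1, which encodes its inhibitor, read 642 and 428 (-0.52). Of the targets, Nqo1 read 159 and 216 (0.50), whereas Hmox1 read 2426 and 1544 (-0.59, and -0.16 on its other probe). The regulator and its targets thus gave values on both sides of 0. Nuclear receptors and the dioxin receptor list lay at -0.04 over 17 genes, and at 0.10 after normexp correction. Nr1i3 (CAR), a regulator of drug metabolism genes in liver, gave -0.90 at the dim signals of 33.2 and 17.1. Ahr gave -0.30, but 0.31 on its other probe at the dim signals of 13.6 and 16.1. The other large values were Hnf4g (0.54) and Ahrr (-0.51), both also dim, and Pparg (0.51) at 1341 and 1826.

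**Figure D4:**
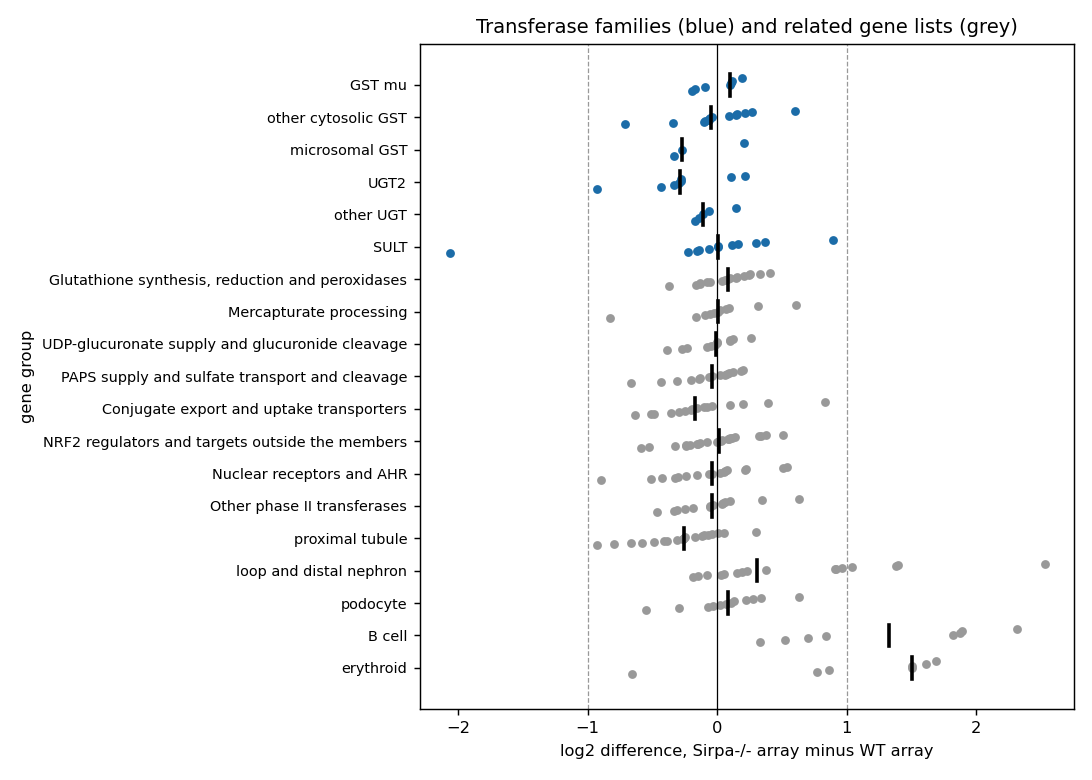
Log2 difference (x axis, knockout-labelled minus WT array) of each measured gene in the transferase families (blue) and in related and marker lists (grey), with 1 list per line (y axis); black bars are medians and dashed lines mark 2-fold. The UGT2 family and the proximal tubule markers have medians of -0.29 and -0.26, and the B cell and erythroid lists lie well to the right.

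Markers of the cell types in the tissue were read on the same arrays. All 12 podocyte markers were measured, with a median of 0.09, and ran from -0.55 for Nes to 0.63 for Nphs1. Their summed signals were 520856 (WT) and 520820 (Sirpa-/-) before scaling, a ratio of 1.04 after it. The RNA also held tubule transcripts. All 20 proximal tubule markers were well above background on both arrays, with a median of -0.26 and 0 at 2-fold. Of them 17 lay below 0, where 49.8% of all genes did. Their summed signal was 41145 and 30841, a ratio of 0.782 after scaling, and Aqp1 (-0.93), Slc5a12 (-0.80), Slc7a13 (-0.67) and Slc17a3 (-0.58) were furthest from 0. The lower values of the Ugt2b genes, Mgst1, Mgst3 and Gsta2 stand beside this shift. Its part in them was not tested, and in whole glomerular RNA fewer cells of a type and less RNA per cell cannot be told apart. Sult1a1, Gsta3 and Sult1d1 were higher where the proximal tubule markers were lower. Markers of the loop and distal nephron had a median of 0.31 over 16 genes, with 13 above 0 and 3 below. At least 2-fold higher were 4 of them, as were 1.56% of all genes. Of these, Slc12a3 (22.6) and Calb1 (26.6) were dim on the WT array, and the bright marker Egf lay at 0.03. The median was 1.33 for B cell markers (8 genes) and 1.5 for erythroid markers (7 genes). The other medians were 0.43 for T cells (7 genes), -0.31 for macrophages (7 genes), -0.08 for endothelium (10 genes), -0.13 for mesangial and smooth muscle cells (10 genes) and 0.10 for parietal epithelium (8 genes).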

How the data were processed

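Total RNA of glomeruli was labelled with Cy3 from 0.25 µg, per the labels' protocols, and hybridised to 1 array per group. Per the file headers, the authors' scanner files give each spot's fluorescence intensity from Agilent Feature Extraction 11.0.1.1 (the submitters' processing notes name 9.1), background-subtracted and detrended, with no normalization between arrays. The deposited flags are other values of 0 or 1, per the file headers. The deposited value table holds log2 values with equal quantiles, made by steps not given in the sources used here, and served as an alternative. Its log2 differences, over 32949 probes measured on both arrays, correlated with those from the scanner files at r = 0.9987 with a ratio of SDs of 1.001, so direction and scale were shared. Its columns correlated with their own arrays at r = 0.994 each across probes, so genes were not centred, and had medians of 6.50.

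From the intensities, log2 was taken, unmarked spots of a probe were averaged, and each array's 75th percentile over 39429 gene probes was subtracted. A probe counted as measured when the well-above-background flag was set for over 50% of its spots on each array. Names came from RefSeq accessions in a GRCm38.p6 table, which matched 27234 probes (69.1%) of 20659 genes. The arrays were designed on an older build, so only names and gene order were used. Steps used numpy, pandas and limma 3.58.1, and were tested on simulated data. The members and lists were chosen with earlier results of these data known. Every member may be named. Full values go to members past 2-fold, with probes over 1 log2 unit apart, or bright in their family, and up to 4 genes of each related list are named by size; 1 gene that this rule names is not reported here. With 1 array per group there is no test, and their number limits the precision. Counts use a fold of 2, and values are set beside all genes. The alternatives were 4 other scalings, normexp with an offset of 50 on median signals, the deposited table, other filters, probe means and other folds. Of the 6 motifs searched, 5 were chosen after values were seen (all but TGACNNNGC), as were the promoters printed.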

Additional observations from a re-analysis of the deposited data

How the results depend on the processing

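No paired analysis was possible because each group has 1 array. With no replicates, a gene's value was called moved when it shifted by more than the technical SD between spots (0.055 for brighter and 0.30 for dimmer genes, 0.068 for medians), a limit set after the values were seen. Of 519 recomputed values 457 stayed within it and 62 moved. A change of sign was scored only for values at or past 2-fold to begin with. Few of the 519 could meet that, and none of those few changed sign. Some smaller values did change sign, among them Gstt4 (0.056), Ugt2a3 (0.021) and Gstz1 (0.020) after normexp and Sult4a1 (0.11) with probe means. Quantile, median, loess and spike-in scaling and the deposited table moved no count and no median. Sult1a1 stayed between 0.89 and 0.98 over 9 alternatives and Gsta3 between 0.54 and 0.61. Normexp, which draws dim signals together, left 0 members at least 2-fold lower and moved the median of the members to 0.021 and that of all genes to 0.074. It gave -0.016 for the mu class, -0.14 for UGT2, 0.29 for SULT1 and 0.16 for SULT2. For lists it gave 0.082 for mercapturate processing, 0.045 for conjugate transporters, 0.10 for nuclear receptors, 0.048 for other phase II enzymes, 0.93 for B cells, 0.32 for T cells and 1.28 for erythroid markers. Without a filter on dim probes 1 member (Ugt2b1) was at least 2-fold higher and 2 were lower. The stricter filter, which keeps 34 members, left 0 lower. It gave 0.0027 for the mu class, 0.30 for SULT1, -0.16 for SULT2 (1 gene), -0.12 for other phase II enzymes, 0.17 for the distal nephron, -0.32 for parietal epithelium, 1.88 for B cells, 0.29 for T cells and -0.39 for macrophages. Probe means gave 0.60 for the distal nephron, 1.26 for B cells and -0.17 for macrophages. At 1.5-fold 2 members were higher and 3 lower, and at 3-fold 0 and 1. The cause of these shifts was not tested. Genome-wide, genes past 2-fold numbered 285 higher and 304 lower, and 113 and 79 after normexp (58.9% higher against 48.4%).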

Other observations

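A list of other conjugation genes outside the 3 groups held methyl-, acetyl- and acyl-transferases and medium-chain acyl-CoA synthetases. Its median was -0.04 over 14 measured genes, with 6 above 0, 8 below and 0 at 2-fold, and 0.048 after normexp background correction. The nicotinamide methyltransferase gene Nnmt read 32.7 and 48.7 (0.63), and the medium-chain acyl-CoA synthetase genes Acsm3 and Acsm5 gave -0.47 and 0.34. Transporters that carry conjugates out of and into cells had a median of -0.17 over 16 genes, with 12 below 0, but normexp correction turned this median to 0.045. The uptake transporter gene Slco2b1 was higher on both of its probes, 76.3 and 130 on one (0.83) and 55.5 and 108 on the other (1.02). Slc22a7 (-0.63), Slco1a6 (-0.51) and Abcc6 (-0.48) were lower.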
